A study of Mus musculus with 12 samples.

Results

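CCE mouse embryonic stem cells that carried a short hairpin RNA against the long noncoding RNA TUNA were set against cells that carried a control hairpin, both at day 2 after lentiviral transduction. The genes described are the 7924 of 37477 deposited gene symbols that had at least 10 normalized counts in at least 3 of the 6 libraries of these groups. CCE is a line derived from the mouse blastocyst, and the cells of both groups grew with serum and LIF, a cytokine that keeps such cells undifferentiated. Both groups received a pLKO.1-puro lentivirus and puromycin, which kills cells without the vector, and total RNA was taken with Trizol. There were 3 libraries with the TUNA hairpin and 3 with the control hairpin. TUNA hairpin cells of days 4 and 6, with 3 libraries each, are given as values only, because the only control analysed here is of day 2. The labels do not say whether replicates were separate cultures, so the spread between them may be technical. The labels give no hairpin sequence and do not name a further hairpin against TUNA, so an effect of the hairpin on other RNAs cannot be told apart from an effect of losing TUNA.

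TUNA (gene symbol Tunar) is a conserved RNA made from an intergenic gene that is transcribed in embryonic stem cells and in the nervous system. It is reported to bind the RNA-binding proteins PTBP1, hnRNP-K and nucleolin and to take part in keeping embryonic stem cells pluripotent. Pluripotency in these cells rests on a network of transcription factors around Pou5f1, Sox2 and Nanog. Nucleolin, made by Ncl, is an abundant protein of the nucleolus, where ribosomal RNA is made and modified. Nop56 encodes a core protein of the box C/D small nucleolar ribonucleoproteins (snoRNPs), which place methyl groups on ribosomal RNA. Their guide RNAs, the small nucleolar RNAs (snoRNAs), are mostly cut out of introns of host genes, and both Nop56 and Ncl are such hosts.

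In the sequenced RNA, 73.5% ± 0.905 of reads in the TUNA libraries and 74.5% ± 0.878 in the control libraries (SD, n = 3 each) lay in 3 rows of U3 small nucleolar RNA or of genes that hold it. Outside these rows 936427 to 1328971 reads remained per library, of 3522149 to 5429856 in all. Between libraries of a group, the median chi-square per gene was 0.61 to 1.11, where sampling of whole reads would give 0.45. The values are not all whole reads, and the excess does not tell separate cultures from technical repeats. Embryonic stem cell markers were present throughout: 9 of 10 were tested, and their summed level was 2868 to 3011 normalized counts in the TUNA libraries and 3212 to 3450.4 in the control libraries, with none called. A short set of 10 markers of fibroblasts or feeder cells summed to 13.5 to 38 in the TUNA libraries and 11.9 to 17.6 in the control libraries, and Col1a1, Col1a2, Col3a1, Dcn, Lum and Postn were listed at 0 in all 6. Short sets for primitive endoderm (9 genes), trophoblast (7), neural progenitors (5) and mesoderm (5) each summed to at most 31.9 in any library. The wider lists, which hold genes that other cells make too, were higher. A list of 23 fibroblast and feeder cell genes summed to 317 to 385 in the TUNA libraries and 305 to 379 in the control libraries, with Vim, Fstl1 and Fn1 tested and none called. A list of 21 primitive endoderm genes, among them Lrp2 and Sparc, summed to 679 to 736 and 521 to 538, with 6 tested and none called. Wider lists for trophoblast and neural progenitors reached at most 46.3. In bulk RNA, fewer cells of one type and less RNA per cell cannot be told apart.

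Tunar stands in the table under the symbol 2810011L19Rik. Every one of the 6 libraries lists it at 0, and these data therefore do not check the depletion. Of the reported partners, Hnrnpk had 119, 131 and 117 normalized counts in the TUNA libraries, against 101, 101 and 132 in the control libraries, and Ptbp1 had 63.1, 63.8 and 79.1, against 77.5, 72.3 and 69.7. Both sets of values overlap (limma adjusted p 0.807 and 0.913). The remaining partner, Ncl, was the gene with the second largest log2 rise of all those called.

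With the TUNA hairpin, 33 genes were higher and 46 were lower than with the control hairpin, which is 0.416% and 0.581% of the 7924 genes tested (0.997% together; limma with Benjamini-Hochberg adjustment over all tested genes, threshold 0.05). Without adjustment, 475 genes were higher (5.99%) and 506 lower (6.39%) at p under 0.05. All 3 TUNA libraries lay above all 3 controls for 801 genes (10.1%) and below them for 841 (10.6%). The 79 called genes all belong to these non-overlapping sets. Called list members and groups without overlap, named below, are to be read beside these shares over all genes. The median log2 change over all tested genes was 0.006, with 5th and 95th percentiles of -0.65 and 0.59, so most genes moved little. The smallest called rise was 0.63 and the smallest called fall -0.62 on the log2(value + 1) scale, and 42 called genes changed 2-fold or more, 17 higher and 25 lower.

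The reach of the test depended on the level of a gene. Among the 2642 genes of lowest mean level, 3 genes were called higher and 2 lower, with a median standard error of 0.35. Among the 2640 genes of middle level the counts were 9 and 14 (standard error 0.25), and among the 2642 of highest level 21 and 30 (0.18). Of the 7924 genes, 36 reached 10 counts in the 3 TUNA libraries and in no control, and 50 did so in the 3 controls and in no TUNA library, so such genes entered the test through one group alone. Of the 79 called genes, 73 were at 10 or more in all 6 libraries; Wls, Paqr8 and Coq2 reached 10 in the TUNA libraries alone, and for them the call adds nothing to the values.

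**Figure D1:**
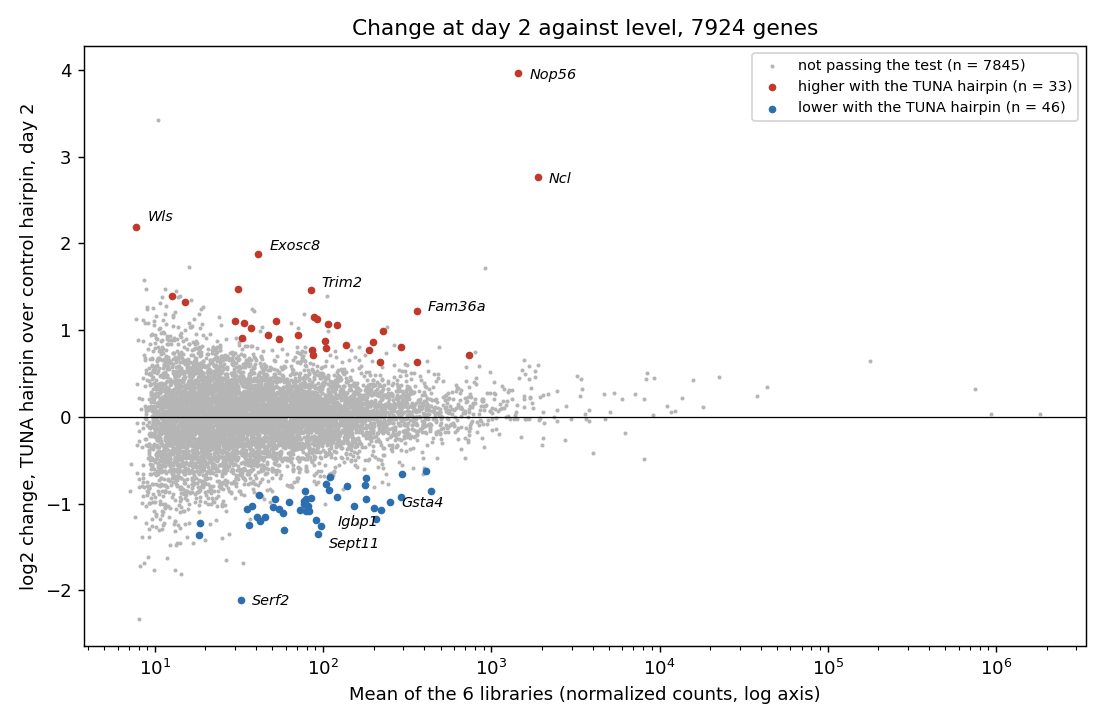
Each point is 1 of the 7924 tested genes, by its mean over the 6 libraries (normalized counts, log axis) and its log2 change with the TUNA hairpin over the control hairpin at day 2. The 33 genes called higher are red and the 46 called lower are blue. Nop56 and Ncl stand apart from the other rises in change, and their level on this axis includes the rise itself. Serf2 has the lowest called value at -2.11.

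Nop56 and Ncl rose more than any other called gene. The 4 named snoRNAs that lie inside these genes on the same strand are shown here, because reads from them would fall within the host genes. Capitals mark the box C motif (TGATGA) and the last box D motif (CTGA) where these letters occur, and in the box H/ACA snoRNA Snora75 the ACA near the 3′ end. The sequences are from the GENCODE M21 transcripts of GRCm38, with Snora75 and Snord82 on chromosome 1 (minus strand, in Ncl) and Snord110 and Snord57 on chromosome 2 (plus strand, in Nop56).
Snora75: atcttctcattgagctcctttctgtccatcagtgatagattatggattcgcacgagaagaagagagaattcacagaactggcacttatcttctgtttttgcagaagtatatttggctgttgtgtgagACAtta
Snord82: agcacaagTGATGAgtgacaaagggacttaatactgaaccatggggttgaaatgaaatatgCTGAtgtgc
Snord110: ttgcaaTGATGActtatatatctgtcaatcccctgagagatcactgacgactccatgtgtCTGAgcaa
Snord57: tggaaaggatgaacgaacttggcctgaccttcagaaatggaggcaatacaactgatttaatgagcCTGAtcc

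Nop56 had 1568, 3551 and 3073 normalized counts in the TUNA libraries, against 153, 128 and 225 in the control libraries. The lowest TUNA library was far above the highest control, and the TUNA libraries differed among themselves. The means were 2731 ± 1035 and 169 ± 50.4 (SD, n = 3 each), a 16.2-fold difference (log2 change 3.96 ± 0.25 (SE), limma adjusted p 1.15e-07). Ncl had 3866, 3155 and 2921 in the TUNA libraries, against 562, 485 and 415 in the control libraries, again with a wide gap between the groups. Its means were 3314 ± 492 and 487 ± 73.4, a 6.8-fold difference (log2 change 2.76 ± 0.18, adjusted p 1.15e-07). Both calls held with each of the 6 libraries left out.

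Of the named intronic snoRNAs shown above, only Snora75 reached the level needed for the test, and it was not called. Snord110, Snord82 and Snord57 were not tested. Other snoRNAs annotated inside these genes (Gm24451, Gm23187 and Gm23650 in Nop56, Gm24148 in Ncl) are not described here. Snora75, in Ncl, had 32661, 23809 and 20926 normalized counts with the TUNA hairpin, against 12975, 19535 and 24787 with the control hairpin (log2 change 0.46 ± 0.30, adjusted p 0.583), and the groups overlap. Snord110 was listed at 0 in all 6 libraries, Snord82 had 1.11 in 1 control library and 0 in the others, and Snord57 reached 1.41 in the TUNA libraries and 2.14 in the control libraries. No source used here gives how a read within both a host and its snoRNA was shared between the rows, so reads of spliced messenger RNA, introns and snoRNA cannot be told apart in the host rows. Idh3b, which overlaps Nop56 on the other strand and encodes a subunit of mitochondrial isocitrate dehydrogenase, had 24.7, 35.7 and 31.2 with the TUNA hairpin, against 30.4, 30.9 and 33.3 with the control hairpin (log2 change -0.06 ± 0.21, adjusted p 0.946).

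No other gene that holds a snoRNA on its own strand was called by limma. Of 200 such genes among those tested, 2 were higher, Ncl and Nop56, and 0 lower, a share of 1% beside 0.997% over all genes. The median of the 200 log2 change was 0.12, with 135 positive, beside 0.006 over all genes. The next lowest adjusted p was 0.054, for 2810026P18Rik, which had 79.3, 86.7 and 119 in the TUNA libraries, against 143, 160 and 203 in the control libraries (log2 change -0.83 ± 0.20). Snhg11, a noncoding snoRNA host, had 153, 124 and 146, against 69.9, 50.9 and 97.4 (0.99 ± 0.24, adjusted p 0.0559). Its groups do not overlap, as in 10.1% of all tested genes in this direction. In a list of 89 tested snoRNA host genes, the median deviation from the control mean was 0.13, 0.08 and 0.10 in the TUNA libraries. In the control libraries it was -0.04, -0.06 and 0.10. Among the 53 tested rows of small nucleolar and nuclear RNAs, 0 were called by limma and 6 had an unadjusted p under 0.05, all higher. Their median log2 change was 0.26, with 49 positive. The control libraries spread over as wide a range, since the median deviation of these rows from the control mean was 0.56, 0.16 and 0.08 in the TUNA libraries and -0.28, -0.09 and 0.41 in the control libraries. A wider set held all rows with names of small noncoding RNAs, tested or not, except the U3 rows. It took 14.7% ± 2.18 of the reads outside the U3 rows with the TUNA hairpin and 13.7% ± 3.19 with the control hairpin. An exact permutation test, two-sided, gave p = 0.7, where the smallest p that 3 against 3 allows is 0.1.

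The partners of Nop56 in the snoRNP were not called. Of 18 tested snoRNP proteins, 1 was higher, Nop56 itself, and 0 were lower, with a median log2 change of -0.04. Nop58, the paralog that pairs with Nop56 in the box C/D particle, had 205, 232 and 224 in the TUNA libraries, against 279, 222 and 218 in the control libraries (-0.11 ± 0.15, adjusted p 0.832). Nufip1, an assembly factor of these particles, had 242, 228 and 220.3, against 190.4, 204 and 177 (0.27 ± 0.14, adjusted p 0.467). The groups overlap for Nop58 and are separate but close for Nufip1. Dkc1, the pseudouridine synthase of the box H/ACA particle, had 227, 267 and 264, against 368, 262 and 214 (-0.12 ± 0.29, adjusted p 0.916). Npm1, an abundant nucleolar protein like nucleolin, had 1926, 1923 and 2437, against 2343, 1486 and 1605 (0.23 ± 0.28, adjusted p 0.809). Nop58, Dkc1 and Npm1 were looked up after the result for Nop56 and Ncl was known.

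The promoters of Nop56 and Ncl are shown because these genes moved together at day 2. Each runs from 250 bases before to 50 bases after the start of the gene, 5′ to 3′ on the strand of the gene, from RefSeq on GRCm38.p6: chr2:130274162-130274461 (plus strand) for Nop56 and chr1:86359406-86359705 (minus strand) for Ncl. Capitals mark CCAAT and GGGCGG on either strand.
Nop56: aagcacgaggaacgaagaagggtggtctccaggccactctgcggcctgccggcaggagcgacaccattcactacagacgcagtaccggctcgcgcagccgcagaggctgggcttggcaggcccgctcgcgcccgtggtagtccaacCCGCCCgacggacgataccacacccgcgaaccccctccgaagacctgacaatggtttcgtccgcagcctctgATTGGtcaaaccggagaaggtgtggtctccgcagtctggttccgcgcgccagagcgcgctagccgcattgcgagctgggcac
Ncl: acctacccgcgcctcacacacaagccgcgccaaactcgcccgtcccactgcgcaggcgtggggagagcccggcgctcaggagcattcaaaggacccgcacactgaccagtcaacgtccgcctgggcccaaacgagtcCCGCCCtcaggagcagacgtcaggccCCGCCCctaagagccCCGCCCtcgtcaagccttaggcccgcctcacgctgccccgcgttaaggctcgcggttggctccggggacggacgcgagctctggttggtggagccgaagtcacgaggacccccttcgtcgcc

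The Nop56 window held 1 CCAAT and 1 GGGCGG, and the Ncl window held 0 CCAAT and 3 GGGCGG. The letters of an E-box, CACGTG, occurred in neither window. Of 32851 promoter windows of the same length, 37.4% held CCAAT, 35.7% GGGCGG and 7.2% CACGTG on either strand. The letters are a description of the windows and were not tested against any measurement.

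The rise of Nop56 and Ncl was seen at day 2 and not in the libraries of later days. Nop56 averaged 2731 ± 1035, 129.7 ± 12.8 and 137 ± 22.1 normalized counts with the TUNA hairpin at days 2, 4 and 6, against 169 ± 50.4 in the control of day 2 (SD, n = 3 each). Ncl averaged 3314 ± 492, 291 ± 62.8 and 420.2 ± 82.4 at those days, against 487 ± 73.4 in the control. All 3 libraries of both later days lay between 115 and 162 for Nop56 and between 237 and 515 for Ncl. Some other called genes were likewise high at day 2 alone by their values. Cth had 164 ± 36.0, 50.2 ± 12.2 and 42.0 ± 11.2 at days 2, 4 and 6, against 77.0 ± 5.90 in the control, and Fam36a had 493 ± 27.8, 209 ± 26.1 and 204 ± 17.9, against 226 ± 106. No test was made of the later days, which have no control of their own day.

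**Figure D2:**
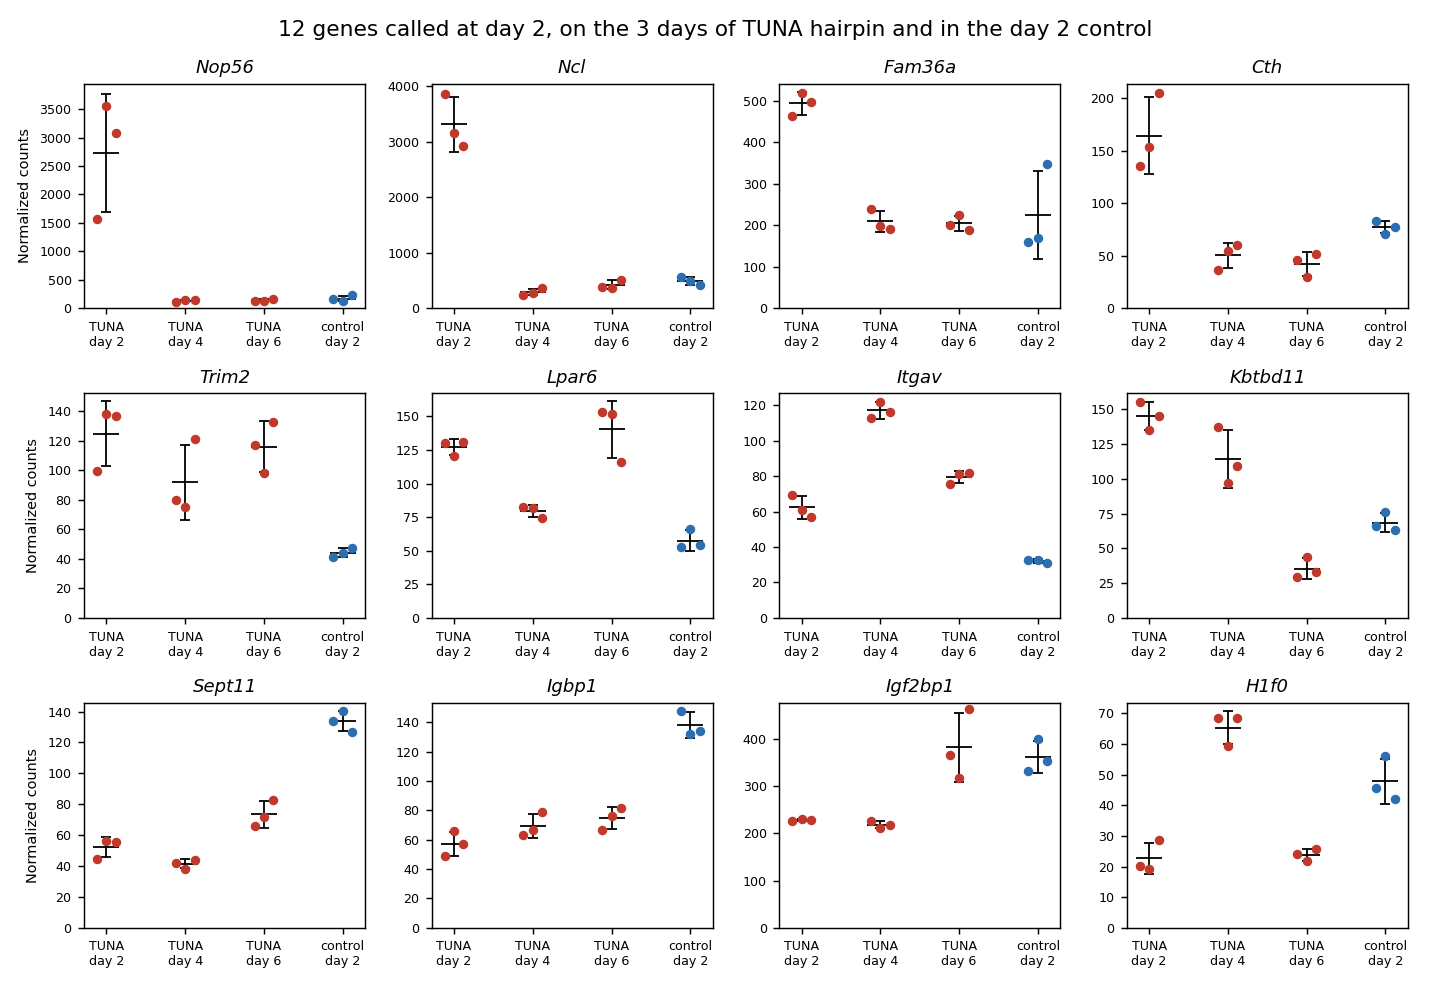
Normalized counts of 12 genes called at day 2, picked for the plot after their values were seen, in the 3 libraries of each group; points are libraries, the horizontal mark is the mean and the bars are 1 SD. Nop56, Ncl, Fam36a and Cth are high at day 2 and near or under the control at days 4 and 6, while Trim2 and Sept11 keep the side of the control they took at day 2, and H1f0 is above the control at day 4 (65.4 ± 5.29 against 47.9 ± 7.35).

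Among called genes that did not enter the test through the TUNA libraries alone, the largest rise after Nop56 and Ncl was in Exosc8. Exosc8, a subunit of the RNA exosome that degrades and trims RNA, had 35.9, 61.1 and 99.8 normalized counts in the TUNA libraries, against 12, 11.3 and 27.7 in the control libraries (log2 change 1.88 ± 0.38, adjusted p 0.0276). The TUNA libraries spread widely but all lie above the controls. With 1 library left out, the call held in only 2 of 6 cases (highest adjusted p 0.134). Wls, a gene of low level here, encodes the carrier that brings Wnt proteins to the cell surface. It had 12.2, 14.6 and 11.3, against 5.18, 0 and 3.31. It reached 10 counts in the TUNA libraries alone, and so was tested only because it was high there; at these levels the fitted change (2.19 ± 0.50) depends on the pseudocount.

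Among membrane and signalling genes, Lpar6 and Kbtbd11 rose with narrow spreads. Lpar6, a receptor for lysophosphatidic acid, had 129.9, 120.3 and 131 with the TUNA hairpin, against 52.6, 66.2 and 54.0 with the control hairpin (1.13 ± 0.16, adjusted p 0.00218), so the groups lay far apart. Lpar6 lies within Rb1 on the other strand. Kbtbd11, which has BTB and kelch domains, had 155, 135 and 145, against 66.4, 76.3 and 62.9 (1.07 ± 0.18, adjusted p 0.00856). Mpp7, a scaffold of cell polarity, had 40.3, 39.5 and 45, against 18.1, 18.3 and 19.6 (1.11 ± 0.23, adjusted p 0.0310), and its call was lost with any library left out (highest adjusted p 0.116). Paqr8, a membrane progestin receptor, had 20.2, 19.3 and 17.1, against 6.90, 7.36 and 5.51, and was tested only because it reached 10 counts in the TUNA libraries. Its fitted change was 1.39 ± 0.31, and its call too was lost with any library left out. Of the 6 tested genes of lysophosphatidate and hyaluronan signalling, 1 was higher, Lpar6, and 0 lower, with a median log2 change of 0.21.

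Genes of ubiquitin ligases moved in both directions. Of 64 tested TRIM and RNF ligases, 1 was higher and 2 were lower, with a median log2 change of 0.07. Trim2 had 99.4, 138 and 137 in the TUNA libraries, against 41.3, 44.1 and 47.1 in the control libraries (1.46 ± 0.20, adjusted p 0.00179), and this held with each library left out. Trim35 had 87.3, 78.0 and 68.4, against 129, 143 and 148 (-0.84 ± 0.17, adjusted p 0.0211), and Rnf181 had 36.8, 32.9 and 35.5, against 83.4, 69.6 and 69.3 (-1.06 ± 0.22, adjusted p 0.0310). Neither of the falls overlapped the controls. Yet with 1 library left out, Trim35 kept its call in only 1 of 6 cases and Rnf181 in none (highest adjusted p 0.101 and 0.137).

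Mitochondrial genes among the rises were Coq2, of ubiquinone synthesis, and Fam36a, the older symbol of Cox20, an assembly factor of cytochrome c oxidase. Coq2 had 25.6, 18 and 22.6 with the TUNA hairpin, against 9.75, 7.85 and 7.01 with the control hairpin (1.32 ± 0.28). It passed the level for the test through the TUNA libraries alone, and its call was lost with any library left out (adjusted p 0.0598 to 0.136). Fam36a had 464, 519 and 497, against 159, 169 and 348 (1.22 ± 0.22, adjusted p 0.0111). Control replicate 3 stood nearer to the TUNA libraries than the other controls did, and with it left out the log2 change of Fam36a was 1.58. Its call held in 2 of the 6 cases (highest adjusted p 0.087). Hnrnpu, which overlaps Fam36a on the other strand, had 1673, 1790.2 and 2054, against 2671, 2003 and 1907 (-0.24 ± 0.25, adjusted p 0.761). Of 59 tested genes of oxidative phosphorylation, 0 were called by limma, with 1 higher and 5 lower at an unadjusted p under 0.05 and a median of 0.11. Of 63 mitochondrial ribosomal proteins, 0 were higher and 1 lower, Mrpl32, at 45.1, 61.8 and 55.5 against 98.4, 98.2 and 117 (-0.95 ± 0.21, adjusted p 0.0427); 31 of the 63 changes were positive. The call of Mrpl32 was lost with any library left out (highest adjusted p 0.183).

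Metabolic enzymes were called in small numbers. Adc, the older symbol of Azin2, an antizyme inhibitor that acts in polyamine control, had 60.2, 69.8 and 87.2 in the TUNA libraries, against 29.8, 31.3 and 37.8 in the control libraries (1.10 ± 0.18, adjusted p 0.00755), without overlap and with its call kept with each library left out. It was the 1 called gene of 9 in the polyamine list (median -0.06). Cth, cystathionine gamma-lyase, which makes cysteine, had 135, 153 and 205, against 82.5, 70.8 and 77.7 (1.06 ± 0.23, adjusted p 0.0372). It was the 1 gene called of 22 targets of ATF4 and genes of amino acid synthesis, where 17 of 22 changes were negative (median -0.15). Atf4 itself, the transcription factor of the amino acid response, had 61.5, 74.4 and 50.3, against 107, 88.2 and 90.7 (-0.62 ± 0.19, adjusted p 0.144). In the glycolysis list of 19, Ldhb, a subunit of lactate dehydrogenase, had 233, 235 and 237, against 138, 127 and 149 (0.77 ± 0.13, adjusted p 0.00811), and Pfkp, a phosphofructokinase, had 49.4, 46.6 and 57.9, against 132, 102 and 75.9 (-0.97 ± 0.21, adjusted p 0.0354). The list's median was 0.05. With 1 library left out, the call held in 0 of 6 cases for Cth, 4 for Ldhb and 1 for Pfkp (highest adjusted p 0.183, 0.0587 and 0.153).

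Ldhb and the row of its processed pseudogene Gm5514 (current symbol Ldhb-ps) moved alike. Gm5514 had 321, 289 and 296 with the TUNA hairpin, against 157, 145 and 153 with the control hairpin (0.99 ± 0.13, adjusted p 0.00172). The sequence of a processed pseudogene is close to that of its parent, so the authors' counting may have shared reads between the rows, and which gene the reads came from is uncertain. In all, 5 of 504 tested pseudogene rows were called, 0.992% beside 0.997% over all genes, and all 5 were higher: Gm5514, Gm6728, Gm14121, Vmn2r-ps19 and Vmn2r-ps20. Gm6728 had 40.3, 41.6 and 58.4, against 16.4, 17.5 and 14.3 (1.47 ± 0.23, adjusted p 0.00390). Of the 79 called rows, 41 (51.9%) overlap another annotated gene in GRCm38, as do 3639 (45.9%) of all tested rows, and the sources used here do not say whether the counting used strand.

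**Figure D3:**
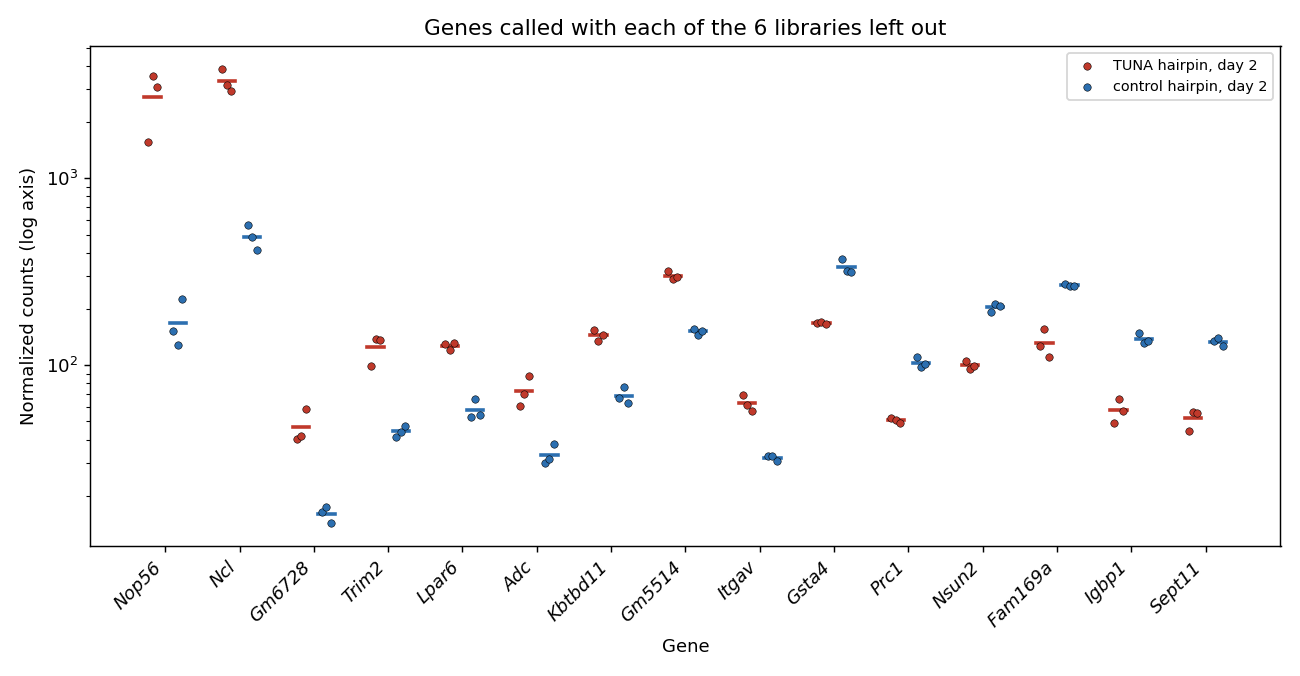
Normalized counts (log axis) in the 3 TUNA libraries (red, left of each pair) and the 3 control libraries (blue, right) of the 15 genes whose call held with each of the 6 libraries left out; points are libraries and lines are means. The groups do not overlap in any of the 15 genes, of which 9 are higher and 6 lower with the TUNA hairpin.

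Genes of adhesion and of the cytoskeleton were among the rises. Of 15 tested keratin and epithelial adhesion genes, 2 were higher and 0 lower (median 0.31). Of 25 genes of the actin cytoskeleton or targets of YAP or TGF-beta, 3 were higher and 0 lower (median 0.07). Over all genes, 0.416% were higher and 0.581% lower, with a median of 0.006. These lists were chosen with earlier results of these data known, and neither was tested as a set. Itgav, the integrin alpha V chain, had 69.6, 61.1 and 56.8 in the TUNA libraries, against 32.5, 32.7 and 30.7 in the control libraries (0.94 ± 0.16, adjusted p 0.00755), and this held with each library left out. Its mean was higher still at the later days, at 62.5 ± 6.52, 117 ± 4.37 and 79.4 ± 3.20 at days 2, 4 and 6, against 32.0 ± 1.07 in the control (SD, n = 3 each). Perp, a desmosome protein and effector of p53, had 51.5, 44.3 and 41.3, against 31.1, 15.0 and 19.9 (1.08 ± 0.22, adjusted p 0.0290). Its call held in only 1 of 6 cases with 1 library left out (highest adjusted p 0.136).

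In the actin list, Amotl2, an angiomotin of the Hippo pathway, had 58.8, 73.6 and 82.5 with the TUNA hairpin, against 38.3, 36.8 and 37.5 with the control hairpin (0.90 ± 0.19, adjusted p 0.0296). Skil, which encodes SnoN, a repressor in TGF-beta signalling, had 253, 263 and 276, against 166, 190.2 and 157 (0.63 ± 0.13, adjusted p 0.0310). Cald1, the actin-binding protein caldesmon, had 112, 121 and 164, against 60.1, 84.2 and 82.8 (0.79 ± 0.18, adjusted p 0.0456). The groups do not overlap for any of the 3 genes, and leaving out 1 library ended the call of Amotl2 in 5 of 6 cases and of Skil and Cald1 in all 6 (highest adjusted p 0.134, 0.127 and 0.214). Epcam, an epithelial adhesion protein, went the other way by value without passing, with 22.4, 7.95 and 9.97, against 15.5, 28.5 and 24.3 (-0.81 ± 0.32, adjusted p 0.295). In the Wnt list of 11, Fzd5, a Wnt receptor, was lower, with 66.1, 53.4 and 54.1, against 109.6, 119 and 106 (-0.94 ± 0.16, adjusted p 0.00959), while Wls, tested through the TUNA libraries alone, was high in them (median 0.11). With 1 library left out, the call of Fzd5 held in 3 of 6 cases (highest adjusted p 0.0694).

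The largest called fall was that of Serf2, a short protein with an effect on protein aggregation, and the fall with the smallest p was that of Sept11, a septin of the cytoskeleton. Serf2 had 15.7, 3.41 and 22.8 in the TUNA libraries, against 59.5, 50.6 and 44.1 in the control libraries (-2.11 ± 0.42, adjusted p 0.0211). The controls lay close together and the TUNA libraries did not, and without TUNA replicate 2 the log2 change of Serf2 was -1.39 (adjusted p 0.0307). Its call held without any one of the TUNA libraries and was lost without any one of the controls (highest adjusted p 0.0942). Serf2 overlaps Hypk on its own strand and Serinc4 on the other. Sept11 had 44.7, 56.4 and 55.3, against 134, 140.1 and 127 (-1.35 ± 0.17, adjusted p 0.000859), kept its call with each library left out, and was the 1 called gene of 6 septins, whose median was 0.17. Sept2 of the same family had 162, 129 and 173, against 104, 134 and 92.0 (0.49 ± 0.18, adjusted p 0.264).

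Igbp1, a regulatory partner of the catalytic subunit of protein phosphatases of the PP2A type, had 49.2, 65.7 and 56.9 with the TUNA hairpin, against 148, 132 and 134 with the control hairpin (-1.26 ± 0.17, adjusted p 0.00159). The lowest control was well above the highest TUNA library. Igbp1 stayed low by value, at 57.3 ± 8.25, 69.6 ± 8.09 and 74.7 ± 7.62 at days 2, 4 and 6, against 138 ± 8.56 in the control (SD, n = 3 each). Tmem50a, a membrane protein, had 10.9, 10.6 and 7.59, against 26.7, 20.5 and 32.9 (-1.36 ± 0.29, adjusted p 0.0344), and Nipsnap3b had 22.4, 25.4 and 27.4, against 75.5, 57.9 and 45.8 (-1.20 ± 0.22, adjusted p 0.0111). LOC100503634, which matched no gene of the annotation used, had 131, 121 and 128, against 324, 260.3 and 282 (-1.18 ± 0.20, adjusted p 0.00755). Ankrd13c, an ankyrin repeat protein, had 34.6, 23.4 and 24.5, against 52.2, 67.5 and 67.3 (-1.16 ± 0.23, adjusted p 0.0192), and Cdk19, a kinase of the Mediator complex, had 7.84, 13.4 and 11.4, against 24.2, 24.0 and 30.6 (-1.22 ± 0.27, adjusted p 0.0420). No library of one group reached the other in these 5 genes. In the 6 cases with 1 library left out, Igbp1 kept its call in all, LOC100503634 in 5, and Nipsnap3b and Ankrd13c in 2 each. Tmem50a and Cdk19 kept it in none (highest adjusted p of the 5 other than Igbp1 0.0519, 0.0712, 0.107, 0.142 and 0.170).

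Several genes of ribosome synthesis fell, unlike Nop56 and Ncl. The ribosome biogenesis list does not hold Nop56, Ncl or Exosc8, which were called higher. Of its 81 tested genes, 0 were higher and 3 lower, beside 0.416% and 0.581% over all genes. The median log2 change was -0.09, and 49 of 81 changes were negative. At an unadjusted p under 0.05, 1 was higher and 10 lower, beside 5.99% and 6.39% over all genes. Rrn3, the factor that brings RNA polymerase I to ribosomal DNA, had 298, 277 and 369.7 in the TUNA libraries, against 609, 549.8 and 541 in the control libraries (-0.86 ± 0.19, adjusted p 0.0428). Ddx24, an RNA helicase, had 29.1, 38.9 and 32.4, against 85.1, 80.9 and 84.6 (-1.30 ± 0.26, adjusted p 0.0211). Surf6, a nucleolar protein, had 36.6, 25.3 and 35.6, against 74.0, 74.4 and 54.9 (-1.04 ± 0.24, adjusted p 0.0428). The groups do not overlap in these 3 genes, though each call was lost with any library left out (highest adjusted p 0.190, 0.101 and 0.205). Ftsj3, a methyltransferase of preribosomes, had 60.2, 88.1 and 96.3, against 149, 127 and 119 (-0.70 ± 0.19, adjusted p 0.0979). Rpp25, a subunit of RNase P, which trims transfer RNA, had 18.4, 24.6 and 20.9, against 55.7, 45.3 and 54.2 (-1.25 ± 0.23, adjusted p 0.0111). Its call held in only 2 of 6 cases with 1 library left out (highest adjusted p 0.0657).

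Ribosomal proteins themselves were not called. Of 79 tested cytosolic ribosomal proteins, 0 were called by limma, with a median log2 change of 0.13 and 56 positive. At an unadjusted p under 0.05, 8 were higher and 0 lower, beside 5.99% and 6.39% over all genes. The median deviation from the control mean was 0.17, 0.10 and 0.04 in the TUNA libraries. In the control libraries it was -0.10, -0.11 and 0.20, so control replicate 3 stood above every TUNA library. Rpl13a had 41.3, 57.3 and 62.3 with the TUNA hairpin, against 19.1, 18.6 and 29.4 with the control hairpin (1.24 ± 0.30, adjusted p 0.0641), and Rpl9 had 89.8, 106 and 84.8, against 31.4, 43.2 and 69.3 (1.02 ± 0.28, adjusted p 0.102). In both genes control replicate 3 was the highest control. The fitted changes of Rps16 and Rps12 were larger, but Rps16 had 8.81, 13.2 and 56.1, against 4.09, 2.75 and 10.4 (1.73 ± 0.57, adjusted p 0.200), and Rps12 had 1457, 1178 and 988, against 74.1, 508 and 1263 (1.71 ± 0.61, adjusted p 0.243). The groups overlap in both, with a 1-library excess in Rps16 and a wide spread of controls in Rps12, which was chosen after its values were seen.

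Transcription and nuclear transport contributed some falls. Of 49 tested subunits of RNA polymerases and general transcription factors, 0 were higher and 2 lower, and 25 of the 49 changes were positive. Gtf3c4, a subunit of TFIIIC, which serves RNA polymerase III, had 65.9, 50 and 37.2 in the TUNA libraries, against 121, 99.4 and 102 in the control libraries (-1.09 ± 0.20, adjusted p 0.0111). Gtf2h1, a subunit of TFIIH, had 112, 132 and 179.7, against 387, 269 and 243 (-1.07 ± 0.24, adjusted p 0.0420). Its groups are apart by less than the spread of the controls. With 1 library left out, the call of Gtf2h1 held in only 1 of 6 cases (highest adjusted p 0.183). Of 50 importins, exportins and nucleoporins, 0 were higher and 1 lower (median 0.03). Kpna1, an importin alpha, had 43.1, 48.5 and 78.0, against 132, 132 and 114 (-1.19 ± 0.21, adjusted p 0.00982), while its partner Kpnb1, importin beta, had 571, 571 and 619, against 799.6, 890 and 753 (-0.47 ± 0.13, adjusted p 0.0979). With 1 library left out, the call held in 3 of 6 cases for Gtf3c4 and in 2 for Kpna1 (highest adjusted p 0.0657 and 0.0711).

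Genes that act on messenger RNA and chromatin were also among the falls. Of 67 splicing regulators, 0 were higher and 1 lower, Rbm14, a paraspeckle protein, with 29.9, 48.0 and 31.2 with the TUNA hairpin, against 74.6, 104 and 61.2 with the control hairpin (-1.11 ± 0.25, adjusted p 0.0428; list median -0.09). Naa40, which acetylates the N-terminus of histones, had 48.2, 49.7 and 58.4, against 119, 106 and 110.2 (-1.09 ± 0.25, adjusted p 0.0428). H1f0, a linker histone, had 20.2, 19.3 and 28.5, against 45.7, 56.1 and 41.9 (-1.06 ± 0.21, adjusted p 0.0211), and was the 1 gene called of 69 histone genes, whose median was -0.13. With 1 library left out, Rbm14 and Naa40 lost their calls in all 6 cases and H1f0 in 4 (highest adjusted p 0.249, 0.160 and 0.124). H3f3a, which encodes the replacement histone of the H3 family, had 166, 140.3 and 132, against 38.5, 34.2 and 124 (1.39 ± 0.33, adjusted p 0.0559). Control replicate 3 again lay near the TUNA libraries, and with 1 library left out the adjusted p of H3f3a ran from 8e-05 to 0.281. Nsun2, an RNA cytosine methyltransferase named here after its values were seen, had 105, 95.6 and 99.5, against 193, 212 and 208 (-1.03 ± 0.15, adjusted p 0.00223), and its call held with each library left out.

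The cell cycle lists held 4 called genes, all lower. In DNA replication and S phase, 0 of 42 were higher and 2 lower (median -0.03). In mitosis, 0 of 32 were higher and 2 lower, with 17 of the 32 changes positive. Over all genes, 0.416% were higher and 0.581% lower. Prc1, which bundles microtubules of the central spindle, had 52.4, 50.9 and 48.8 in the TUNA libraries, against 110.1, 98.3 and 101 in the control libraries (-1.01 ± 0.17, adjusted p 0.00755), and held with each library left out. Ccna2, cyclin A, had 83.1, 87.1 and 80.0, against 148, 145 and 187 (-0.92 ± 0.17, adjusted p 0.0118). Mcm4, a subunit of the replicative helicase, had 59.9, 44.3 and 55.9, against 103, 122 and 104 (-1.03 ± 0.19, adjusted p 0.0111), and Rfc1, of the clamp loader, had 136, 119.8 and 153, against 256, 203 and 209 (-0.70 ± 0.16, adjusted p 0.0428). The groups do not overlap in these 4 genes, but with 1 library left out Mcm4 kept its call in 4 of 6 cases, Ccna2 in 2 and Rfc1 in none (highest adjusted p 0.0829, 0.0684 and 0.194).

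Gsta4, a glutathione transferase that clears lipid aldehydes, had 169, 171 and 167 with the TUNA hairpin, against 369, 319 and 314 with the control hairpin (-0.98 ± 0.14, adjusted p 0.00179). The TUNA libraries had an SD of 1.69 normalized counts (n = 3), and the call held with each library left out. It was the 1 called gene of 20 NRF2 antioxidant genes (median -0.06). Sqstm1, the autophagy receptor p62, had 109, 132 and 135, against 164, 188 and 203 (-0.56 ± 0.15, adjusted p 0.101).

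Pluripotency genes leaned lower without passing. Of 20 tested naive pluripotency genes, 0 were called by limma, with 1 higher and 4 lower at an unadjusted p under 0.05; 17 changes were negative and the median was -0.24, beside 0.006 over all genes. Of 14 core pluripotency genes, 0 were called, with 0 higher and 1 lower at an unadjusted p under 0.05 (median -0.14). The 1 lower was Nanog, which is in both lists. At that threshold, 5.99% of all tested genes were higher and 6.39% lower. Nanog had 287, 295 and 327 in the TUNA libraries, against 429.6, 465 and 551 in the control libraries (-0.66 ± 0.16, adjusted p 0.0707), without overlap. Tcfcp2l1, the older symbol of Tfcp2l1, a factor downstream of LIF, had 222, 229.5 and 243, against 342, 341 and 317 (-0.52 ± 0.15, adjusted p 0.116). The groups are separate in both genes, as in 10.6% of all tested genes in this direction. Pim3, a kinase gene downstream of LIF and STAT3, had 132, 136 and 117, against 186, 197 and 193 (-0.58 ± 0.14, adjusted p 0.0565), while Socs3, which feeds back on the same pathway, had 154, 124 and 144, against 114, 94.7 and 106 (0.42 ± 0.16, adjusted p 0.280).

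Other pluripotency anchors stayed within the spread of the libraries. Pou5f1, which encodes OCT4, had 644, 698 and 673 with the TUNA hairpin, against 731, 672 and 808 with the control hairpin (-0.13 ± 0.14, adjusted p 0.775). Sox2 had 533, 570.2 and 609, against 544, 566 and 544 (0.05 ± 0.13, adjusted p 0.924). Fgf4, a growth factor that Pou5f1 and Sox2 drive, had 225, 212 and 219, against 231, 229 and 189.7 (0.02 ± 0.14, adjusted p 0.977). In each of these 3 genes the groups overlap. Otx2, a factor of the primed epiblast, had 35.7, 36.8 and 46.9, against 26.4, 32.2 and 23.6 (0.52 ± 0.31, adjusted p 0.540). Lrp2, the endocytic receptor megalin, in the primitive endoderm list, had 291, 350.2 and 332, against 175, 155 and 141 (1.04 ± 0.26, adjusted p 0.0676), and 0 of the 6 tested genes of that list were called, with 1 higher and 0 lower at an unadjusted p under 0.05.

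The p53 target list leaned higher by its median, while its calls went both ways. Of 28 genes, 1 was called higher and 1 lower, beside 0.416% and 0.581% over all genes. The median log2 change of the list was 0.29 with 24 positive, beside 0.006 over all genes. At an unadjusted p under 0.05, 8 were higher and 1 lower, beside 5.99% and 6.39% over all genes. The list was chosen with earlier results of these data known and was not tested as a set. The called genes were Perp, described above, and Ei24, an endoplasmic reticulum protein of autophagy. Ei24 had 23.6, 19.8 and 31.3 in the TUNA libraries, against 66.2, 49.4 and 52.7 in the control libraries (-1.15 ± 0.25, adjusted p 0.0364). Its call held in only 1 of 6 cases with 1 library left out (highest adjusted p 0.163). Plk2, a polo-like kinase, had 147, 147 and 149, against 95.8, 87.7 and 90.8 (0.69 ± 0.16, adjusted p 0.0539), just outside the threshold. Sesn2, a sestrin that restrains growth signalling, had 34.5, 31.3 and 19.9, against 18.1, 16.1 and 13.0 (0.80 ± 0.25, adjusted p 0.162). In Plk2 and Sesn2 the groups do not overlap, as in 10.1% of all tested genes in this direction. The libraries of Plk2 lie close together within each group. Mdm2, the ligase that degrades p53, had 180.2, 199.9 and 180.2, against 163, 185 and 128 (0.25 ± 0.21, adjusted p 0.693). Trp53 itself had 32.5, 27.2 and 41.3, against 39.3, 39.5 and 27.6 (-0.07 ± 0.24, adjusted p 0.942). The groups overlap in both, and Mdm2 and Trp53 were looked up after the list's values were seen.

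**Figure D4:**
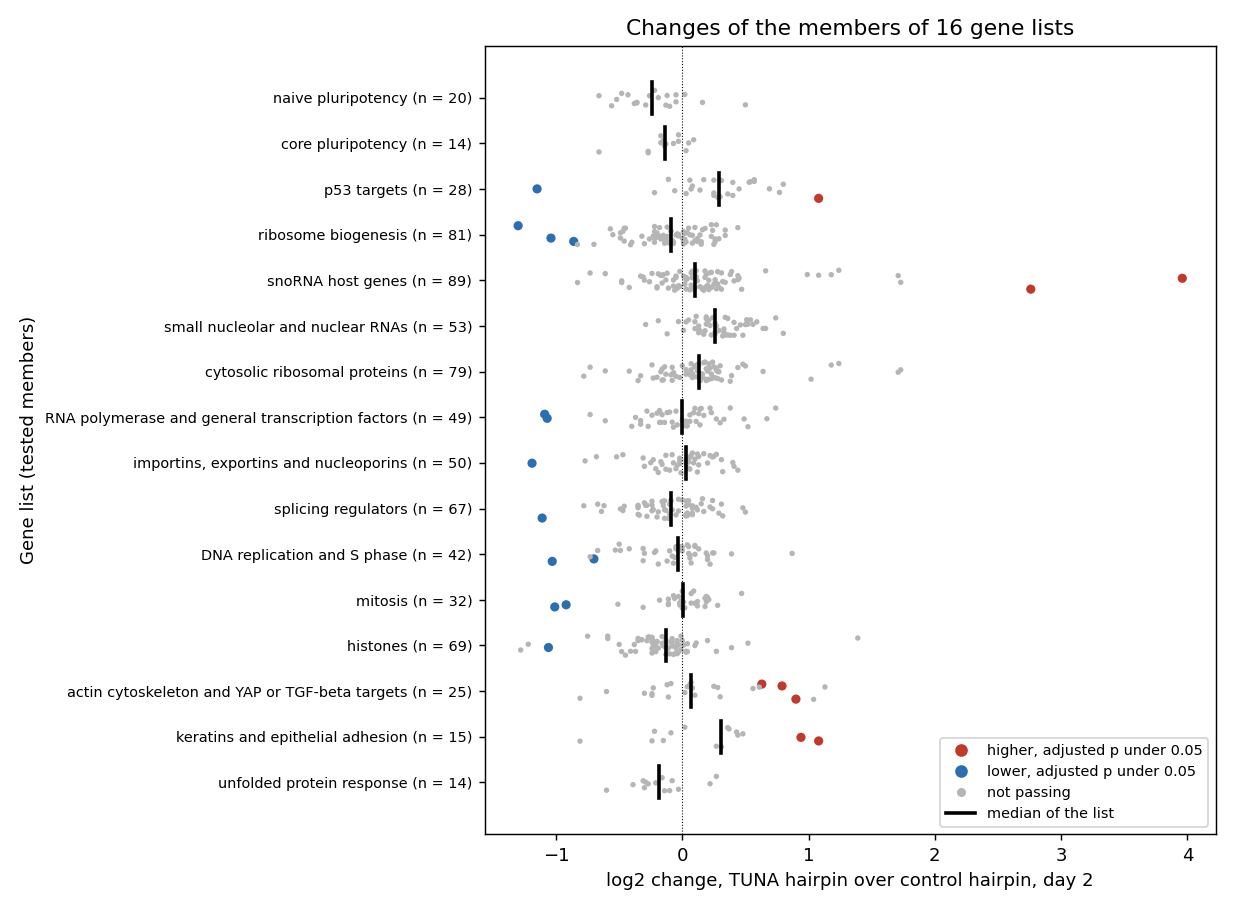
Log2 changes with the TUNA hairpin over the control hairpin of the tested members of 16 gene lists; each point is 1 gene, vertical lines are list medians, and red or blue points passed the limma test as higher or lower. Nop56 (3.96) and Ncl (2.76) stand apart among the snoRNA host genes, while the medians of all 16 lists lie between -0.24 and 0.31.

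Stress responses outside these lists gave little at this depth. Of 14 genes of the unfolded protein response, 0 were called by limma and 0 were higher and 2 lower at an unadjusted p under 0.05, with 12 of 14 negative (median -0.18). Calr, the chaperone calreticulin, had 387, 395 and 409 with the TUNA hairpin, against 511, 495 and 456 with the control hairpin (-0.29 ± 0.13, adjusted p 0.373). Of 31 interferon response genes, 4 reached the level needed for the test and 0 were called, with 0 at an unadjusted p under 0.05 in either direction. Of 12 hypoxia response genes outside glycolysis, 0 were called, with 2 higher and 0 lower at an unadjusted p under 0.05. Plod2, a collagen lysyl hydroxylase, had 49.5, 44.9 and 51.3, against 34.0, 26.4 and 22.2 (0.82 ± 0.19, adjusted p 0.0559).

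The remaining called genes span many functions. The other rises ran from a log2 change of 0.63 to 1.15: Zfp146, Tmem123, Gm14121, Flot2, Vmn2r-ps20, Cnot6, Btbd1, Arrdc3, Mbnl2, 1700052N19Rik, Vmn2r-ps19 and Zfp568. They include a messenger RNA deadenylase (Cnot6), an adaptor of cullin ligases (Btbd1), an arrestin-like protein (Arrdc3), a splicing regulator (Mbnl2) and a protein of membrane microdomains (Flot2). Zfp146, a zinc finger protein, had 98.5, 127 and 141 in the TUNA libraries, against 54.3, 67.0 and 42.9 in the control libraries (1.15 ± 0.20, adjusted p 0.00811). The other falls ran from -1.07 to -0.62: Ttc4, Fam169a, 2510039O18Rik, Kdm4a, Trh, Ythdf2, Ugcg, Dcp2, Wdr37, Ssr1, Serp1, Emp1, Larp4b, Cnga1, Igf2bp1 and Cbx5. They include a histone demethylase (Kdm4a), a chromatin protein of the HP1 family (Cbx5), the reader of methylated messenger RNA Ythdf2, the decapping enzyme Dcp2, the RNA-binding protein Igf2bp1, glucosylceramide synthase (Ugcg) and parts of the protein translocation machinery of the endoplasmic reticulum (Ssr1 and Serp1). Nearest inside the threshold were Cald1, 2510039O18Rik and Cnga1 (adjusted p 0.0456, 0.0464 and 0.0469). Nearest outside were Sfxn1, a mitochondrial serine carrier, with 8.96, 10.3 and 5.70, against 14.8, 29.1 and 31.9 (-1.46 ± 0.34, adjusted p 0.0513), Tpm1, a tropomyosin, and Plk2 (both 0.0539). Tpm1 had 111, 111 and 149, against 85.1, 42.2 and 47.4 (1.13 ± 0.27).

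How far single calls depended on 1 library varied. Of the 79 called genes, 15 kept their call with each of the 6 libraries left out: Nop56, Ncl, Gm6728, Trim2, Lpar6, Adc, Kbtbd11, Gm5514 and Itgav higher, and Sept11, Igbp1, Fam169a, Nsun2, Prc1 and Gsta4 lower. Another 35 kept it in 1 to 5 of the 6 cases and 29 in none, and over these genes the highest adjusted p with 1 library left out lay between 0.0519 (Cnot6 and LOC100503634) and 0.249 (Rbm14). Leaving out a library leaves 2 against 3 in this comparison, so fewer genes reach the threshold whichever library it is: between 9 and 22 genes were higher and between 9 and 21 lower, the fewest in both directions without TUNA replicate 2.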

How the data were processed

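RNA of 12 libraries (4 groups of 3) was analysed from 1 deposited table of 37477 gene symbols, of which the day 2 comparison uses 6 libraries and the fit all 12. The values are log2 normalized counts made and deposited by the authors, with a floor of 0, reached at 1 normalized count or below. Per the submitters' processing notes, BWA, DESeq and the build mm9 were used; versions and roles are not given there. No mm9 annotation was used; 81.0% of symbols matched a GRCm38 symbol or synonym, which served for gene names, overlaps and sequences.

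The log2 scale was undone to give normalized counts, with 0 kept at 0. The worth of 1 read was estimated as the median step between the most frequent values of a library, and gave an estimate of its depth. It was 0.8628 and 0.9198 normalized counts in control replicates 1 and 2, and 1.1028 in control replicate 3. In the TUNA libraries of day 2 it was 1.1198 to 1.4249. With the floor at 1, a single read was therefore listed at 0 in control replicates 1 and 2 but above 0 in those TUNA libraries. In the 6 libraries, only 45.6% to 56.6% of the values below 20 reads came within 0.02 of a whole number. The values were therefore not taken as whole counts, and no count model was used. Rows were tested that reached 10 normalized counts in 3 or more of the 6 libraries. A pseudocount of 1 was added before taking log2. The model, in limma 3.58.1 under R 4.3.3, had a term for each group, no block and an intensity trend, leaving 8 residual degrees of freedom besides 8.83 from the prior. Benjamini-Hochberg adjustment ran over the 7924 rows (threshold 0.05), and every adjusted p in the text is from this fit or a named alternative. Errors of log2 changes are standard errors; on this scale the change of low genes is understated. Lists are described by counts and medians, with no test. The fit was also run on simulated data, and the outcome is not reported here. Figures used matplotlib 3.10.9 in Python 3.11.15.

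The genes named were the 15 largest rises and 15 largest falls called without overlap, called members of lists, up to 4 members of a described list with the smallest p, TUNA, its reported partners and 4 pluripotency genes, and the 3 genes nearest each side of the threshold; others are marked where they stand. Not every gene picked in this way is reported here. The members and lists were chosen with earlier results of these data known. Alternatives were other filters, pseudocounts, scalings, a fit of only the 2 groups, limma-voom on recovered reads, a replicate block, the rows without snoRNAs and their hosts, a stricter threshold and each library left out.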

Additional observations from a re-analysis of the deposited data

How the results depend on the processing

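The counts of 33 genes higher and 46 lower stayed within 1.5 times under other scalings, other pseudocounts, the filter over 12 libraries or at 25 counts, limma-voom and without snoRNA rows and hosts, where 29 to 36 genes were higher and 39 to 49 lower. The fit of the 2 groups alone called 52 and 73, the threshold of 0.01 called 13 and 11, and the test without a filter on low values called 27 and 29; the cause was not tested for the 2 groups alone. With 1 library left out, 9 to 22 genes were higher and 9 to 21 lower: 17 and 14 without control replicate 1, 13 and 11 without control replicate 2, 22 and 18 without control replicate 3, 20 and 18 without TUNA replicate 1, 9 and 9 without TUNA replicate 2, and 12 and 21 without TUNA replicate 3. Leaving out TUNA replicate 2 shared 18 calls with the 79. The test without a filter on low values shared 53, limma-voom 64, the 2 groups alone 74 and the other scalings 76 to 78. The log2 changes of 118 genes, the 79 called and others given in the text, were recomputed, and 5 turned direction, each with 1 library left out and never past the threshold. The log2 change of Dkc1 ran from -0.30 (without control replicate 3) to 0.09 (without control replicate 1), the log2 change of Nop58 from -0.18 to 0.0029 without the same libraries, and the log2 change of Idh3b from -0.18 (without TUNA replicate 2) to 0.08 (without TUNA replicate 1). The log2 change of Trp53 was -0.24 without control replicate 3, 0.01 without control replicate 1 or 2 and 0.06 without TUNA replicate 2. The log2 change of Fgf4, 0.02 in all 6 libraries, ran from -0.07 (without control replicate 3) to 0.07 (without control replicate 1) with 1 library left out, and was -0.00033 without TUNA replicate 1. The replicate numbers did not pair the libraries, as same-numbered libraries had deviations correlated at -0.102, 0.019 and -0.084. A fit with the replicate number as a block called 30 higher and 37 lower, of which 63 were among the 79. Of 670 medians of lists under the alternatives, 80 moved by more than the spread between replicates. Between 936427 and 1328971 reads per library outside the U3 rows limit what low genes can show.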

Other observations

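With the filter applied over all 12 libraries, 815 further rows were tested, of which 3 were called at day 2. Has2, which makes hyaluronan, had 3.36, 7.95 and 4.27 normalized counts in the TUNA libraries and was listed at 0 in all 3 control libraries. A single read falls under the floor in control replicates 1 and 2 but not in the TUNA libraries, so a listed 0 there need not mean absence. Rnf128, a ubiquitin ligase of membranes, had 10.1, 5.68 and 12.8, against 1.73, 0 and 1.10. Usp36, a deubiquitinase of the nucleolus, had 3.36, 0 and 0, against 11.7, 8.90 and 7.68. All 3 stood below 10 counts in most of the 6 libraries and entered the test only with libraries of later days. Has2 averaged 19.2 and 19.1 with the TUNA hairpin at days 4 and 6. They are given as values, with no fold and nothing read from their calls.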
